A study of Homo sapiens with 12 samples.

Results

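GC-poor promoters were defined here as the sequence around the transcription start site (TSS) of a protein-coding gene with less than 50% G+C from 500 bp before to 500 bp after the TSS in hg38, with the 5′ end of each GENCODE release 44 gene taken as its TSS. Of 19970 protein-coding genes on chromosomes 1 to 22 and X, 4307 (21.6%) had such a promoter, with a median of 43.6% G+C, and 9385 had a GC-rich promoter of 60% G+C or more, with a median of 66.1%. Their members are the 3642 regions, 2.305% of the 158028 listed by the authors, that overlapped the 2-kb window centred on these TSSs. They comprise 1495 H2A.Z regions and 2147 regions of acetylated H2A.Z (H2A.Zac).

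The regions come from ChIP-seq in K562, an erythroleukemia-derived human cell line that the labels call a lymphoblast, with 12 libraries made of 2 biological replicates each of input, H2A.Z and H2A.Zac in a WT and a ΔTRRAP line. In both lines endogenous EP400 carries a dTAG and was degraded with 500 nM dTAGV-1 for 24 h, and the cells express EP400 from the AAVS1 locus, either WT or without the SANT and HD domains that hold TRRAP (ΔTRRAP). Each line is 1 clone, so the mutation and the clone cannot be told apart. The authors merged the replicates and sorted regions with MACS2 bdgdiff into those higher in WT (lost in ΔTRRAP), higher in ΔTRRAP (gained) or unchanged, by a log10 likelihood ratio (LR) with a cutoff of 3. A region has no value per replicate and library depth is not known from the lists, so shares are given with Wilson 95% intervals and differences with Newcombe 95% intervals. These cover counting error only, neighboring regions are not independent, and no test between the lines could be made.

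H2A.Z is a variant of histone H2A that sits in the nucleosomes next to active and poised promoters, and TIP60, with EP400 as its scaffold and motor, exchanges it into chromatin and acetylates it. TRRAP is the large subunit through which TIP60 meets transcription factors. Most human housekeeping promoters are GC-rich CpG islands, whereas GC-poor promoters more often hold a TATA box and belong to genes used in few tissues, such as those for odorant receptors, defensins and globins, or to genes transcribed in a short part of the cell cycle, such as those for histones.

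The sequences below run from 200 bases before the TSS through the 30 bases that begin at it, 5′ to 3′ on the gene's strand (hg38). They are shown as examples of the classes described in the following paragraphs. A class is that of the 2-kb window, and the changed regions did not always cover the printed bases. GPR85 (chr7:113087749-113087978, minus strand) and PTPN22 (chr1:113871724-113871953, minus) lost both marks, ZNF608 (chr5:124748778-124749007, minus) gained both, and H3C7 (chr6:26250606-26250835, minus) gained H2A.Zac beside unchanged H2A.Z. Capitals mark TATAAA, the GATA hexamer as AGATAA or as AGATAG or as TGATAA or as TGATAG, and the CAAT box as CCAAT, each on either strand. The GC box GGGCGG, the E-box CACGTG and the AP-1 motif as TGACTCA or as TGAGTCA were also searched and are in none of the 4.
GPR85: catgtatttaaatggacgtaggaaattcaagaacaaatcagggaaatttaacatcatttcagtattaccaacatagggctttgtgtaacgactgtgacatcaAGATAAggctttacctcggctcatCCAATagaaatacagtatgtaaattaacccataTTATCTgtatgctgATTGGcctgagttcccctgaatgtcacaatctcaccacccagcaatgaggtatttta
PTPN22: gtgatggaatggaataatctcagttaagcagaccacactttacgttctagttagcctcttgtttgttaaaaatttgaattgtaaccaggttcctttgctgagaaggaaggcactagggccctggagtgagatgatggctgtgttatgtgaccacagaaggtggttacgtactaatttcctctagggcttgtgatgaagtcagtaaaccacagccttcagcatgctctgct
ZNF608: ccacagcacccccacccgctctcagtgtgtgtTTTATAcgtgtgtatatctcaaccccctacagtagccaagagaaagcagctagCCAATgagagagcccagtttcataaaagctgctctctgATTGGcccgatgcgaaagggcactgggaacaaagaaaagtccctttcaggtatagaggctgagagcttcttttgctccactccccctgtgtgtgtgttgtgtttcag
H3C7: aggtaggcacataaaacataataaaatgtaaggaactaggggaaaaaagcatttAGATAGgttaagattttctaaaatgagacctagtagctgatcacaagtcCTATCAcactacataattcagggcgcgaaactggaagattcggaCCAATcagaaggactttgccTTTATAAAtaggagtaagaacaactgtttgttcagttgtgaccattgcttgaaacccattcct

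In these letters H3C7 has TATAAA on the sense strand, starting at -31 from the TSS, an overlapping match on the other strand at -33, CCAAT at -53 and GATA hexamers at -146 and -97. GPR85 has CCAAT on both strands and GATA hexamers at -98 and -41, ZNF608 has CCAAT on both strands and TATAAA on the antisense strand at -168, and PTPN22 has none of the marked motifs in this stretch. The 4 sequences hold 2 to 4 CG dinucleotides each. A match describes the letters and is no evidence of a bound factor. Lost H2A.Zac covered the printed bases of GPR85 and PTPN22. The lost H2A.Z of GPR85 lay outside them, and most of the PTPN22 stretch was in unchanged H2A.Z. Gained regions of ZNF608 held only upstream bases of its stretch. The gained H2A.Zac of H3C7 began 97 bp after the TSS, and its printed bases lay in an unchanged H2A.Zac region.

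Most GC-poor promoters had neither mark. An H2A.Z region overlapped the window of 1024 of the 4307 (23.8%, 22.5 to 25.1) and an H2A.Zac region that of 1138 (26.4%, 25.1 to 27.8), whereas 76.2% and 77.6% of GC-rich promoters had one. The differences of -52.4 points for H2A.Z (-54.0 to -50.9) and -51.1 points for H2A.Zac (-52.7 to -49.6) stayed between -53.0 and -50.3 when any 1 chromosome was left out. Either mark was present at 1238 GC-poor promoters (28.7%). A promoter without a region in the lists may still carry the mark below the authors' thresholds.

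Occupancy rose with G+C within the GC-poor promoters themselves. H2A.Z was listed at 7.61% of the 394 promoters of less than 35% G+C (5.38 to 10.7), at 12.2% of those of 35 to 40%, at 20.6% of those of 40 to 45% and at 35.7% of the 1722 of 45 to 50% (33.5 to 38.0). H2A.Zac was listed at 9.14%, 14.1%, 22.8% and 39.3% of the same promoters. The steps continue above the 50% limit and flatten from 60% upwards, as the plot of occupancy by G+C class shows.

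**Figure D1:**
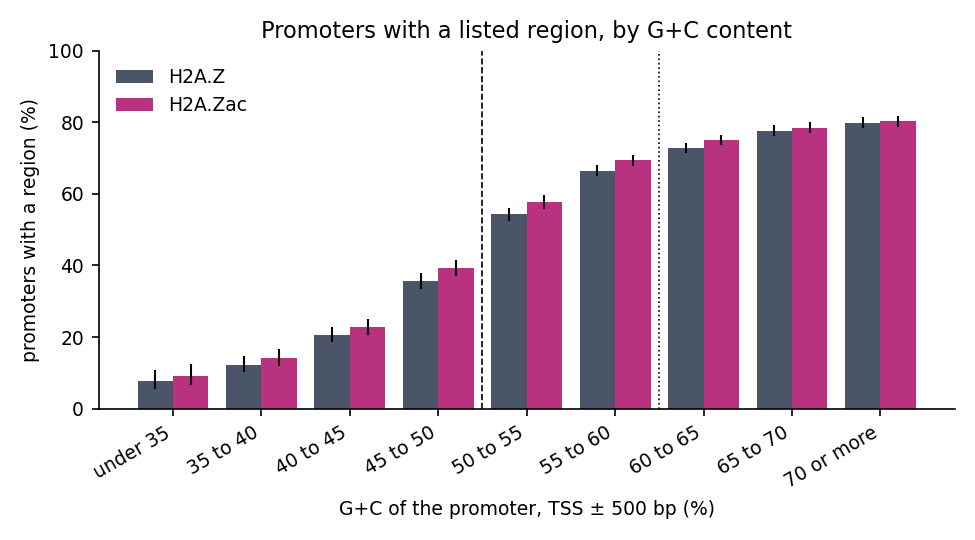
Share of protein-coding promoters with a listed H2A.Z or H2A.Zac region (y axis, percent) by G+C of the TSS ± 500 bp (x axis, percent), with Wilson 95% intervals as bars; the dashed line is the limit of GC-poor and the dotted line that of GC-rich promoters. H2A.Z rises from 7.61% in the lowest class to 79.9% in the highest.

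Acetylated H2A.Z without a listed H2A.Z region was a more frequent state at GC-poor than at GC-rich promoters. Both marks were listed at 924 GC-poor promoters, H2A.Z alone at 100 and H2A.Zac alone at 214. The last number is 18.8% of the GC-poor promoters with H2A.Zac, against 5.28% of the GC-rich ones, a difference of 13.5 points (11.3 to 16.0). By region, 1611 of 2147 H2A.Zac regions at GC-poor promoters (75.03%, 73.2 to 76.8) had at least 25% of their length on an H2A.Z region, against 84.5% at GC-rich promoters (difference -9.50 points, -11.5 to -7.62). Within the GC-poor promoters this share was 64.0% for lost (58.9 to 68.8), 75.5% for gained (72.1 to 78.6) and 78.3% for unchanged H2A.Zac regions (75.8 to 80.6). The erythroid surface genes GYPB and RHAG and the globin genes HBD and HBG1 were in this state, with H2A.Zac and no H2A.Z region in the window.

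Occupied GC-poor promoters differed in sequence from empty ones. The median ratio of observed to expected CG dinucleotides was 0.397 at those with a region and 0.198 at those without, against 0.797 at GC-rich promoters. Occupied promoters also had a higher median G+C, 46.0% against 42.3%, and 22.1% of them had another TSS of at least 50% G+C within 2 kb, against 1.63% of the empty ones, and the part of this in the motif counts was not tested. In the 300 bp from 250 before to 50 after the TSS, searched on both strands, the GC box was found at 14.0% of occupied (12.2 to 16.0) and 5.02% of empty GC-poor promoters (4.30 to 5.85), against 80.1% of GC-rich and 52.4% of all protein-coding promoters. TATAAA was found at 19.3% of occupied (17.2 to 21.6) and 29.7% of empty GC-poor promoters (28.1 to 31.4), against 3.96% of GC-rich and 10.8% of all. The GATA hexamers were found at 42.3% of occupied and 46.9% of empty GC-poor promoters and 21.9% of all, CCAAT at 39.7%, 42.2% and 35.9%, the E-box at 4.85%, 3.26% and 8.35%, and the AP-1 motifs at 6.30%, 6.91% and 3.99%. Short A- and T-rich words are more frequent in any GC-poor sequence.

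Between WT and ΔTRRAP, GC-poor promoters gained regions more often than they lost them, for both marks. Of the H2A.Z regions, 161 were lost, 271 gained and 1063 unchanged, and of the H2A.Zac regions 361 were lost, 666 gained and 1120 unchanged. The gained share of these changes was 62.7% (58.1 to 67.2) for H2A.Z and 64.8% (61.9 to 67.7) for H2A.Zac. Over all listed regions of the genome, 19.8% of H2A.Z regions were lost and 14.1% gained, and 25.9% of H2A.Zac regions were lost and 26.3% gained. By promoter, 140 GC-poor promoters had a lost and 244 a gained H2A.Z region (3.25% and 5.67%), where all protein-coding promoters gave 6.65% and 13%. For H2A.Zac the numbers were 328 and 597 (7.62% and 13.9%), where all promoters gave 16.9% and 34.8%.

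A larger share of the regions changed at GC-poor than at GC-rich promoters. Of the H2A.Z regions at GC-poor promoters 28.9% changed (26.7 to 31.2), against 21.0% at GC-rich ones, a difference of 7.92 points (5.54 to 10.4; 7.36 to 8.74 with 1 chromosome left out). Of the H2A.Zac regions 47.8% changed (45.7 to 49.9), against 43.5%, a difference of 4.33 points (2.08 to 6.59; 4.12 to 4.59 with 1 chromosome left out). Over all listed regions of the genome more changed than at GC-poor promoters, 34% of H2A.Z and 52.1% of H2A.Zac regions, and among TSS-distal regions of less than 50% G+C 40.3% and 56.1% did. H2A.Zac regions changed more often than H2A.Z regions in both groups of promoters.

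In direction, the difference between GC-poor and GC-rich promoters depended on which changes were counted. Over all changed regions the gained share at GC-poor and GC-rich promoters was 62.7% and 65.4% for H2A.Z (difference -2.70 points, -7.75 to 2.16) and 64.8% and 67.2% for H2A.Zac (difference -2.37 points, -5.55 to 0.709), and both intervals contained 0. Among changes of higher LR the gained share at GC-poor promoters was above that at GC-rich ones. At an LR of at least 10, 28 of 39 changed H2A.Z regions at GC-poor promoters were gained (71.8%, 56.2 to 83.5), against 44 of 89 at GC-rich promoters, and 129 of 237 H2A.Zac regions (54.4%, 48.1 to 60.7), against 483 of 1078. These differences were 22.4 points (3.75 to 37.8) and 9.63 points (2.60 to 16.5). The gained share of H2A.Zac was thus lower than over all changed regions in both groups, and fell further at GC-rich promoters, to 44.8%, where that of H2A.Z fell as well, to 49.4%. At an LR of at least 20, a cutoff chosen after the values were seen, 39 of 63 H2A.Zac regions were gained at GC-poor and 48 of 165 at GC-rich promoters (61.9% and 29.1%). The LR grows with depth, width and signal besides the size of a change and cannot be read as a fold.

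The place of the annotated TSS also bore on this share. The canonical TSS lay more than 1 kb from the 5′ end of the gene for 1382 of the 4307 GC-poor promoters, and for 984 of these it had 50% G+C or more. Such GC-poor upstream starts had gained shares of 54.8% for H2A.Z (47.2 to 62.2) and 58.4% for H2A.Zac (53.3 to 63.2). The 2925 GC-poor promoters with a canonical TSS within 1 kb had 68.8% (63.2 to 74.0) and 69.2% (65.6 to 72.6), which is 2.28 and 1.36 points above GC-rich promoters chosen in the same way, with intervals that contain 0.

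A nearby promoter of higher G+C went with occupancy and with gain. Another TSS of at least 50% G+C lay within 2 kb of 323 GC-poor promoters, and 81.4% of these had H2A.Zac (76.8 to 85.3), against 21.96% of the 3984 others (20.7 to 23.3). Gained regions were 79.7% of their changed H2A.Zac regions and 60.6% of those of the others, a difference of 19.1 points (12.5 to 24.9), and for H2A.Z 78.9% and 58.2%, a difference of 20.8 points (10.2 to 29.6). The groups were also compared without these 323 promoters and without 364 GC-rich promoters that had a neighbor of the other kind. GC-poor minus GC-rich, the gained share then differed by -6.79 points for H2A.Z (-12.5 to -1.25) and -6.12 points for H2A.Zac (-9.76 to -2.58). A region that reaches 2 promoters cannot be assigned to either one, and 211 of the 3642 regions also lay in the window of a GC-rich promoter.

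Regions far from promoters were gained less often than those at GC-poor promoters, except at the lowest G+C. Among regions with less than 50% G+C of their own, 63.3% of the changed H2A.Z regions at GC-poor promoters were gained (57.4 to 68.8), against 44.03% of those without a TSS within 1 kb (43.03 to 45.04), a difference of 19.2 points (13.3 to 24.8). For H2A.Zac the shares were 60.9% and 50.1%, a difference of 10.8 points (6.98 to 14.6). Below 35% G+C the order was the other way, with gains in 74.5% of the changed distal H2A.Z regions and 14 of 20 at GC-poor promoters, and in 66.9% of the distal H2A.Zac regions and 30 of 51 at GC-poor promoters (58.8%), but the intervals of the promoter shares contain the distal ones. In the TSS-distal regions the gained share of H2A.Z fell to 19.2% at 60 to 65% G+C and was 40.7% at 70% or more, and that of H2A.Zac fell to 31.1% and was 59.6% in the same classes. Over the promoter classes the gained share of H2A.Z lay between 60.7% and 71.2%. G+C content can also affect amplification and alignment of reads; the input libraries were not analysed here and the part of this in the results was not tested.

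**Figure D2:**
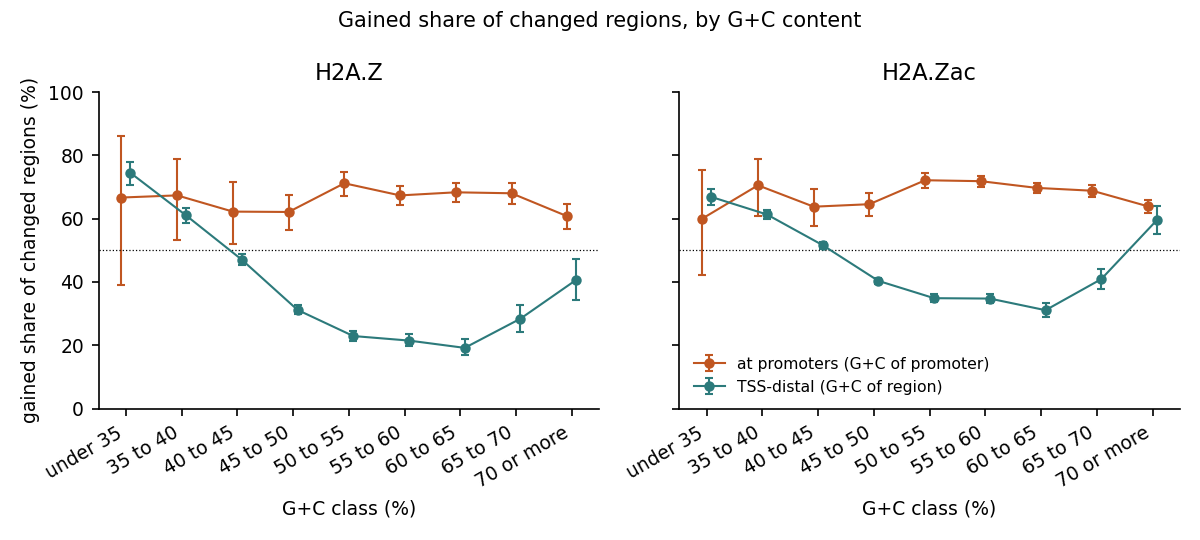
Gained regions as a share of lost and gained regions (y axis, percent) by G+C class (x axis, percent; G+C of the TSS ± 500 bp for promoters and of the region itself for TSS-distal regions), with Wilson 95% intervals; the dotted line is 50%. The points for promoters lie above 50% in every class for both marks, whereas the H2A.Z shares of distal regions fall to 19.2% at 60 to 65% G+C and reach 40.7% at 70% or more.

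Lost H2A.Zac regions lay upstream of GC-poor TSSs more often than gained ones, and downstream less often. Of the lost H2A.Zac regions 41.6% were wholly upstream and 25.1% wholly downstream of the TSS, 33.2% spanned it, and the median midpoint was at -128 bp. Of the gained ones 17.9% were upstream, 46.6% downstream and 35.4% across the TSS, with the median midpoint at 353 bp. Lost minus gained, the differences were 23.7 points upstream (17.9 to 29.4) and -21.5 points downstream (-27.1 to -15.6). At GC-rich promoters the signs were the same, with 25.7 points upstream (23.3 to 28.1) and -13.1 points downstream (-15.3 to -10.8). By coverage at 400 bp to either side of the TSS, lost H2A.Zac was nearly level, on 12.5% of occupied promoters before it and 11.3% after it. Gained H2A.Zac was on 16.1% and 27.9%. At 1000 bp, lost H2A.Zac was on 9.75% before and 6.94% after the TSS. Lost H2A.Zac was upstream less often than at GC-rich promoters, where 52.5% of the lost regions were (difference -10.9 points, -16.2 to -5.41). Unchanged regions most often spanned the TSS, in 45.1% of cases for H2A.Z and 44.7% for H2A.Zac at GC-poor promoters. Unchanged H2A.Z was also placed differently. At GC-rich promoters its coverage had a dip just before the TSS between an upstream and a downstream maximum, whereas at GC-poor promoters it had 1 maximum, downstream.

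**Figure D3:**
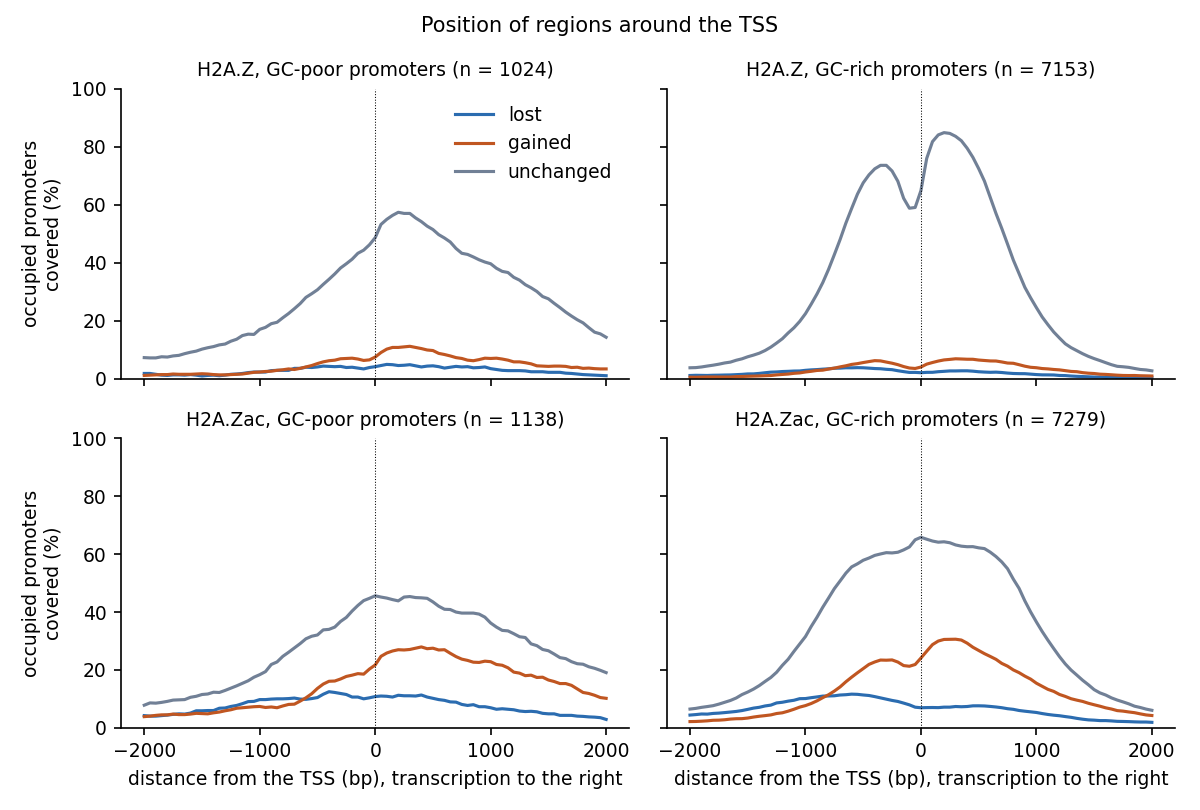
Share of occupied promoters covered by lost, gained or unchanged regions (y axis, percent) at each distance from the TSS (x axis, bp, transcription to the right), for H2A.Z (top) and H2A.Zac (bottom) at GC-poor (left) and GC-rich promoters (right); n is the number of promoters with a region of that mark. At GC-poor promoters gained H2A.Zac covers more promoters after the TSS (27.9% at 400 bp) than before it (16.1%). Lost H2A.Zac is nearly level at 400 bp to either side (11.3% and 12.5%).

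The marks moved in the same direction at more promoters than in opposite ones, as they did at GC-rich promoters. Both were gained at 161 GC-poor promoters and both lost at 86, and they moved in opposite directions at 12 (3.74%, 2.00% and 0.279% of all GC-poor promoters, beside 10.6%, 5.39% and 1.02% of GC-rich ones). Of the 525 promoters with gained and no lost H2A.Zac, H2A.Z was unchanged at 259 (49.3%), gained at 161 (30.7%), absent from the lists at 98 (18.7%) and lost at 7. Of the 256 with lost and no gained H2A.Zac, it was unchanged at 102 (39.8%), lost at 86 (33.6%), absent from the lists at 61 (23.8%), gained at 5 and changed in both directions at 2. At GC-rich promoters the share with gained H2A.Z among the former (28.8%) and with lost H2A.Z among the latter (33.4%) was close to these values, whereas H2A.Z was absent from the lists at 4.07% and 8.72%. At 72 GC-poor and 516 GC-rich promoters H2A.Zac was lost in one region and gained in another.

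Of the 6 motifs searched, the GC box was the one whose intervals at GC-poor promoters with gained and with lost H2A.Zac did not overlap. GC boxes were found at 17.3% of the promoters with gained and no lost H2A.Zac (14.3 to 20.8) and at 8.20% of those with lost and no gained H2A.Zac (5.43 to 12.2), with 12.3% where H2A.Zac was unchanged (8.96 to 16.6), and the median ratio of observed to expected CG was 0.469 at the former and 0.321 at the latter. TATAAA was found at 22.1% and 16.4% of the promoters with gained and with lost H2A.Zac, the GATA hexamers at 42.1% and 41.4%, CCAAT at 38.9% and 38.3%, the E-box at 3.62% and 6.64% and the AP-1 motifs at 5.33% and 5.47%. Another TSS of at least 50% G+C lay within 2 kb of 28.8% of the promoters with gained and 12.5% of those with lost H2A.Zac, and its part in these values was not tested.

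Among lost H2A.Zac regions, MCTS2, an intronless relative of the translation factor gene MCTS1, had the highest LR, 82.6, in a region of 1407 bp across its TSS and into its only exon (chr20:31546505-31547911, 49.4% G+C promoter), with no H2A.Z region. IL7, the cytokine that keeps lymphocytes alive, lost H2A.Zac on both sides of its TSS (LR 59.6 and 42.5) and H2A.Z likewise (LR 10.7 and 14.6). GPR85, an orphan receptor of the brain with the sequence shown above, lost H2A.Zac over 5271 bp that cover its TSS and overlap all 3 exons of the canonical transcript (chr7:113083670-113088940, LR 51.9). H2A.Z was lost before and after the GPR85 TSS (LR 14.4 and 7.63) and unchanged farther downstream, in a region that holds the canonical start 951 bp away.

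ABCG1, which exports cholesterol, lost both marks across its 5′-most start (LR 38.6 for H2A.Zac and 13.5 for H2A.Z), a TSS 19451 bp upstream of the canonical one. PTPN22, a phosphatase that restrains lymphocyte receptor signals, lost H2A.Zac over 2721 bp across the TSS (LR 30.1). Its H2A.Z was lost on both sides (LR 7.24 and 6.48) and unchanged in the 277 bp at the TSS itself, which hold most of the printed sequence. IGFL4 (LR 34.97) and MMRN1, a platelet adhesive protein (LR 30.5), also lost H2A.Zac across starts that lie 36116 and 15322 bp upstream of the canonical TSS. IGFL4 lost H2A.Z across the same start (LR 6.87), and MMRN1 had no H2A.Z region. SMIM30 went both ways, with H2A.Zac lost upstream (LR 36.4) and both marks gained across the TSS (LR 13.7 for H2A.Zac and 11.9 for H2A.Z).

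PCK1, the enzyme that commits carbon to gluconeogenesis, and BRSK1, a brain kinase, lost both marks, with LRs of 12.95 and 13.06 for H2A.Z and 17.4 and 20.4 for H2A.Zac. The BRSK1 H2A.Zac region also reached the GC-rich promoter of HSPBP1, and neither lost region reached the canonical BRSK1 TSS, 1925 bp downstream. GARIN1A had the highest LR of a lost H2A.Z region, 14.99, in a region that begins 535 bp downstream of its 5′ end and spans its canonical TSS, and no H2A.Zac region. All lost H2A.Z regions at GC-poor promoters lay at or below that value, and 4 gained ones exceeded 20. MCTS2 and PCK1 lie on chromosome 20, and IGFL4 and BRSK1 on chromosome 19. On both chromosomes the gained shares at GC-rich promoters were also below those of all chromosomes together, as given below.

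Among gained H2A.Zac regions, ZNF608, a zinc finger gene, had the highest LR. Its regions flanked the TSS, at LR 90.7 downstream (chr5:124745880-124748315) and 65.5 upstream (chr5:124748904-124749990), with H2A.Z gained in nearly the same stretches (LR 24.99 and 22.28), and the bases around this 5′-most start were in no listed region. The canonical TSS, 2168 bp downstream, lies within the gained regions of both marks. RIPOR2, an inhibitor of RHOA, gained H2A.Zac at LR 78.4 and H2A.Z at LR 10.8 across a start 106210 bp upstream of the canonical one. MGP, a secreted inhibitor of calcification, gained H2A.Zac across its TSS and first exon (chr12:14885381-14886290, LR 65.7) and H2A.Z 818 to 1424 bp downstream (LR 25). MAT1A, the methionine adenosyltransferase of adult liver, gained H2A.Zac across its TSS (chr10:80289421-80290185, LR 52.4) and H2A.Z just upstream (LR 24.7).

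GDPD4 gained H2A.Zac over 4721 bp without H2A.Z (LR 44.01), and FBXO16 gained both (LR 42.9 for H2A.Zac and 6.08 for H2A.Z). CALD1, which encodes the actin-binding protein caldesmon, gained both marks about the same stretch upstream of a start 35382 bp from the canonical one (LR 42.5 and 14.4). GPC6, a cell-surface heparan sulfate proteoglycan, gained both marks over 6976 and 7132 bp (LR 19.2 for H2A.Zac and 16.2 for H2A.Z). SLC7A11, the cystine importer, gained H2A.Z on both sides of its TSS (LR 15.3 and 9.12) and H2A.Zac across it (LR 10.8). The gene with the identifier ENSG00000257065 gained H2A.Z (LR 15.5 and 7.74) without H2A.Zac. DEFB104B gained H2A.Zac (LR 49.7) and H2A.Z (LR 9.92), but it has a near-identical copy, DEFB104A, that was listed with gained H2A.Z only (LR 13.5), so the assignment of reads to either is uncertain.

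**Figure D4:**
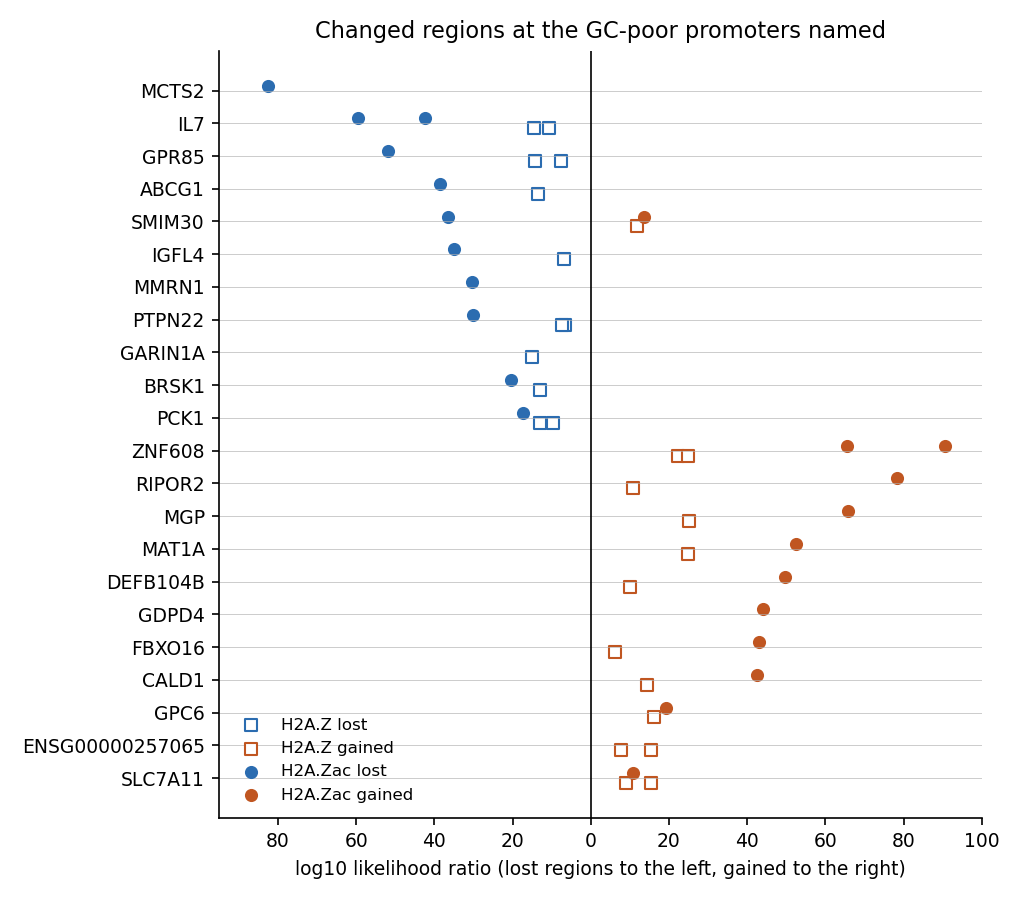
Log10 likelihood ratio (x axis) of every changed region in the 2-kb window of the 22 GC-poor promoters with changes that are named by rank, with lost regions to the left and gained regions to the right of 0; circles are H2A.Zac and open squares H2A.Z. SMIM30 alone among these genes has regions on both sides, and H2A.Zac reaches 82.6 among lost and 90.7 among gained regions.

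The unchanged promoters of lowest G+C were CLEC2B (33.1% G+C), RNASE9 (33.3%) and ANGPTL5 (33.9%). CLEC2B, a lectin expressed by blood cells, had an unchanged H2A.Z region of 777 bp and an unchanged H2A.Zac region of 2143 bp across its TSS, with LRs of 0.544 and 0.292. The regions of RNASE9 and ANGPTL5 lay 457 bp or more downstream of the TSS.

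The labelled lymphoblast type was compared with marker genes. Of the 9 erythroid markers at any G+C 8 had H2A.Zac in their windows, the fetal globin gene HBG1 among them. The other, GATA1, had neither mark. H2A.Z did not follow this order, with a region at 3 of the 9 erythroid and 5 of the 7 lymphoid markers. Of all protein-coding promoters 60.3% had H2A.Z. None of the 5 liver markers had either mark. The 8 erythroid markers with H2A.Zac include HBG2 and GFI1B, whose windows lie 250.8 and 34.7 kb from their canonical starts. The windows of the liver markers ALB and TTR lie 7.17 and 34.9 kb from theirs. The liver markers also include FGA and FGB but not FGG, which is in another list. FGG had a lost H2A.Zac region across its TSS (LR 14.0). Lymphoid markers were not empty, with H2A.Zac at 5 of 7, and 62.5% of all protein-coding promoters had it. It was lost at 4 of these 5, where 16.9% of all protein-coding promoters had a lost H2A.Zac region. Of the GC-poor promoters with H2A.Zac 28.8% had one. CD79A, of higher G+C, lost both marks (LR 42.9 for H2A.Zac), CD2 lost both across its TSS (LR 19.3 for H2A.Zac and 6.83 for H2A.Z), CD3D and CD3G lost H2A.Zac in a region they share (LR 4.86), and CD3E had both marks unchanged.

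Gene families known for GC-poor promoters were mostly without either mark, as were GC-poor promoters as a whole, of which 28.7% had one. Of 415 olfactory receptor genes 389 had a GC-poor promoter, and 18 of these had a region, with H2A.Zac gained at 9 and lost at 4. Of the 17 with H2A.Zac these are 52.9% and 23.5%, beside 52.5% and 28.8% of all GC-poor promoters with H2A.Zac, and they include OR51B5, whose lost and gained regions lie at a 5′ end 162 kb from its canonical start. The highest among them was OR2A12, with gained H2A.Zac at LR 42.4 and no H2A.Z, followed by OR52K1 (LR 25.9). A region was listed at 3 of 42 defensin genes, at 1 of 23 bitter taste receptor genes (TAS2R40, H2A.Zac gained at LR 31.8), at 1 of 38 cytochrome P450 and UDP-glucuronosyltransferase genes (CYP3A5, both marks gained), at 2 of 23 chemokine genes and at 1 of 25 lectin receptor genes (CLEC2B). No region was listed at any of the 17 type I interferon genes or the 49 keratin-associated and late cornified envelope genes with GC-poor promoters.

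Replication-dependent histone genes, which are transcribed in S phase from compact clusters, had gained H2A.Zac at every GC-poor promoter of theirs where H2A.Zac was listed. Of 69 in the list 28 had a GC-poor promoter, 18 of these had H2A.Zac, and H2A.Zac was gained at all 18, where 13.9% of all GC-poor promoters, 52.5% of those with H2A.Zac and 34.8% of all protein-coding promoters had a gained region. The highest LR of a gain per gene ran from 4.93 at H4C9 to 28.6 in a region that spans the TSS of H2AC8 and reaches into the window of the divergent gene H2BC8, and several other neighbors in these clusters also share regions. H1-3 also had a lost H2A.Zac region (LR 5.69). H2A.Z was gained at 4 of the 28, namely H4C12, H2BC18, H3C13 and H1-3, where 5.67% of all GC-poor and 13% of all protein-coding promoters had a gained H2A.Z region, and 8 of the 18, H2AC8 among them, had no H2A.Z region. H3C7, with its TATA box and CCAAT shown above, gained H2A.Zac from 97 to 1114 bp after the TSS (LR 6.82), next to an unchanged region across it. The 41 histone genes of 50% G+C or more had H2A.Zac gained at 30 and lost at 1, and 51 of all 69 had H2A.Zac. The coding sequences of these genes are near-identical copies in part, so reads within them can be hard to place.

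Erythroid genes with GC-poor promoters mostly had gained H2A.Zac beside unchanged regions. Of 10, 8 had H2A.Zac, with a gained region at 7 and a lost one at 1, where 13.9% of all GC-poor promoters had a gained and 7.62% a lost region, and 52.5% and 28.8% of those with H2A.Zac did. The median LR of all gained H2A.Zac regions at GC-poor promoters was 6.44. RHAG, a membrane protein of the Rh complex, had the highest LR of a gain, 9.28, followed by HEMGN (8.51, at a start 6.68 kb from the canonical one), and KEL, a blood group antigen, gained it at LR 5.41. AHSP, the chaperone of free alpha globin, was the one with a loss, of H2A.Zac (LR 13.8) and H2A.Z (LR 7.83) in the gene body, next to unchanged regions across the TSS.

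Of the 5 globin genes with a GC-poor promoter, HBD lost H2A.Zac (LR 13.4) at a start 9.17 kb upstream of the canonical one, and HBG1, a fetal globin gene, had 1 unchanged H2A.Zac region across its TSS. HBG2 and HBE1 are annotated from a 5′ end they share with the olfactory receptor gene OR51B5, more than 235 kb from their canonical starts. Their regions (H2A.Zac lost at LR 5.38 and gained at LR 4.67) are therefore not at the globin promoters.

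Ribosomal protein genes, though mostly GC-rich, had 9 GC-poor promoters, a count that includes the muscle paralog RPL3L. H2A.Zac was gained at 6 and lost at 1, RPL3L (LR 6.03, at a start 2.92 kb from the canonical one), where 13.9% of all GC-poor promoters had a gained and 7.62% a lost region and 28.7% had either mark. H2A.Zac was listed at 8 of the 9, so that it was gained at 6 of 8, beside 52.5% of all GC-poor promoters with H2A.Zac. RPL23 had the highest LR of a gain (18.8, just upstream of the TSS, with H2A.Z gained at LR 5.35), followed by RPL41 (8.64) and RPL34 (7.60). Of the 60 numbered zinc finger genes with GC-poor promoters 34 had a region, with H2A.Zac gained at 15 and lost at 9 of the 33 that had it (45.5% and 27.3%, beside 52.5% and 28.8% of all GC-poor promoters with H2A.Zac). ZNF608 and ZNF737 (LR 18.1) had the highest gains and ZNF883 the highest loss (LR 11.5).

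Myeloid and lymphoid marker genes more often had a lost than a gained H2A.Zac region, at 5 and 1 of 8 GC-poor promoters, where over all GC-poor promoters 7.62% had a lost and 13.9% a gained region, and 28.8% and 52.5% of those with H2A.Zac. The mark was listed at 6 of the 8. CD2, CD4 (LR 8.82, at a start 2.67 kb from the canonical one), CD14 (7.53), LYZ (6.26) and PTPRC (5.82) had the losses. PTPRC, the common leukocyte antigen CD45, also had the gain (LR 12.3, downstream of the TSS). H2A.Z was lost at CD2 and gained at LYZ (LR 3.43). Of 15 interferon-response genes H2A.Zac was gained at 4, IFI6 (LR 14.9), IFIT1 (7.83), GBP3 (6.69) and IFIT3 (5.73), and lost at OAS3 (10.6), where H2A.Z was lost as well (8.36). GBP5 lost H2A.Z (LR 5.25) and had no H2A.Zac region. Of 7 megakaryocyte and platelet genes MMRN1 lost and TUBB1 gained H2A.Zac (LR 8.70), and PLEK lost H2A.Z (LR 8.89). Of 8 genes of other tissues, FGG lost H2A.Zac (LR 14.0) and DSG3 gained H2A.Z (LR 4.41). These lists are small, and a gene in them often had both changed and unchanged regions in its window.

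**Figure D5:**
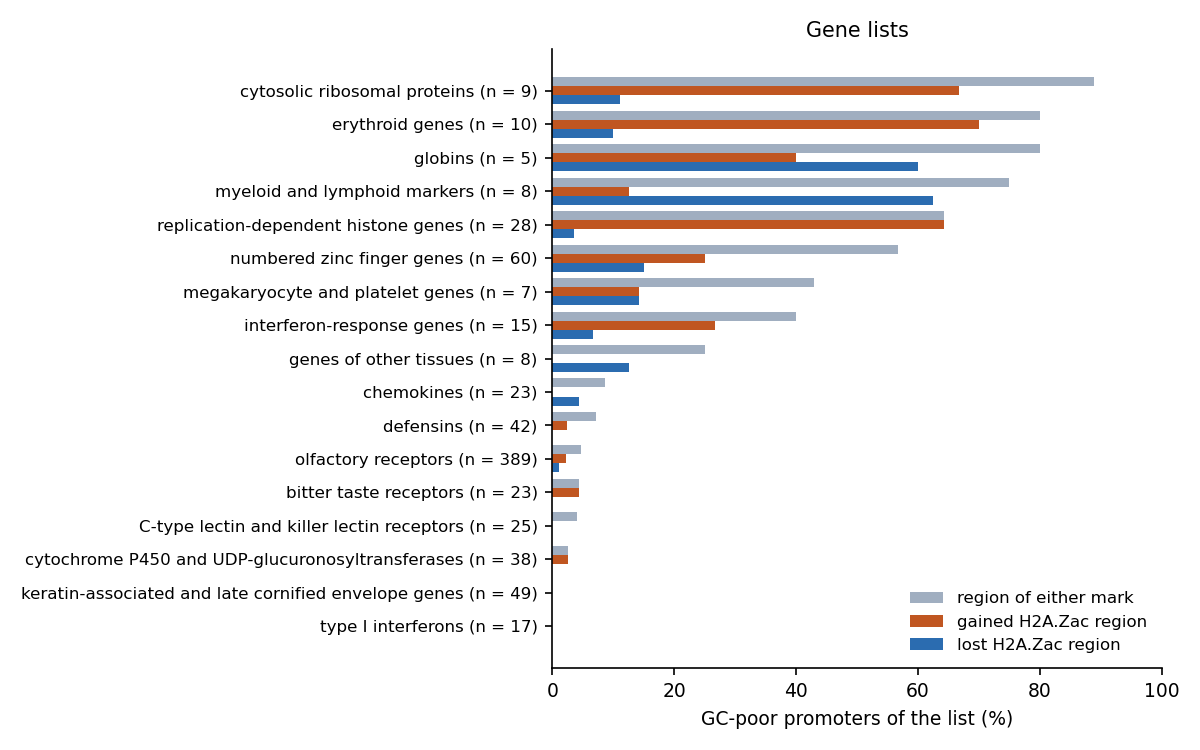
Share of the GC-poor promoters of each gene list (x axis, percent) with a region of either mark, a gained H2A.Zac region or a lost H2A.Zac region; n is the number of GC-poor promoters in the list, and a gene may have both a gained and a lost region. Histone genes have gained H2A.Zac at 18 of 28, and type I interferon genes have no region at any of 17.

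The gained share at GC-poor promoters varied between chromosomes, on some as it did at GC-rich ones and on others not. On the 18 chromosomes with at least 20 changed H2A.Zac regions at GC-poor promoters, the gained share ran from 47.8% to 80.0%, and it was lower than at GC-rich promoters on 13. The lowest was on chromosome 16, where 71.4% of the changed H2A.Zac regions at GC-rich promoters were gained. On chromosome 20, where MCTS2 and PCK1 lie, gains made up 0 of 7 H2A.Z changes and 4 of 18 H2A.Zac changes at GC-poor promoters. At GC-rich promoters of this chromosome 9.89% and 33.7% of the changes were gains. On chromosome 19, where IGFL4 and BRSK1 lie, the gains were 5 of 17 and 23 of 40, beside 32.6% and 56.1% at GC-rich promoters. On chromosome 5, where ZNF608 lies, 34 of 39 and 45 of 58 were gained, beside 83.8% and 71.2% at GC-rich promoters. Without chromosomes 19 and 20 the gained share at GC-poor promoters differed from that at GC-rich ones by -6.07 points for H2A.Z (-11.2 to -1.16) and -3.46 points for H2A.Zac (-6.72 to -0.300).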

How the data were processed

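The 12 libraries are ChIP-seq of H2A.Z, H2A.Zac and input from the WT and ΔTRRAP lines. Per the paper's methods the authors aligned reads to hg38 with Bowtie2, called peaks with MACS2, merged replicates, ran MACS2 bdgdiff with the effective depths reported by MACS2 and kept regions with at least 25% of their length in peaks of an IDR of at most 0.05. The submitters' processing notes name Bowtie2 2.4.5, MACS2 2.2.7.1, deepTools 3.5.1 and bedtools 2.30.0. The deposited score of each region is the authors' log10 likelihood ratio between the lines, 3 or more for changed regions. It ranked regions and set stricter cutoffs.

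TSSs are the 5′ ends of GENCODE release 44 genes, a later release than the authors' one. The 63 genes of chromosome Y and 13 mitochondrial genes were left out, and no region at a GC-poor promoter was lost by this. A region belonged to every promoter whose 2-kb window it overlapped and was counted once per group of promoters. Promoters were compared by shares with Wilson and Newcombe 95% intervals, and each chromosome was left out in turn. Since the lists hold no values per replicate, no test across samples was made. The depths are not given in the lists. Alternatives were other TSS windows, spans and limits of G+C, the canonical TSS, neighboring promoters left out, LR cutoffs of 5 and 10, other overlaps, base pairs or merged regions as the unit, a width filter and chromosomes 19 and 20 left out. An LR cutoff of 20 and the restriction to genes with a canonical TSS within 1 kb were added after values were seen.

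The promoters, gene lists and alternatives were chosen with earlier results of these data known. Genes were named by rank of LR within GC-poor promoters: the 8 highest lost and gained for H2A.Zac, the 6 highest for H2A.Z, the 5 highest where both marks moved the same way, the 3 unchanged of lowest G+C, and members of the lists with a region; some members and sequences are not reported here. Overlap counts of 158028 regions and covered lengths of 94586 regions were checked against bedtools and differed in 0 cases, and the intervals were tested on simulated data. Python 3.11.15, numpy 2.4.6, pandas 2.3.3, scipy 1.17.1, matplotlib 3.10.9 and bedtools 2.31.1 were used. Expression, signal tracks and inputs were not analysed here.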

Additional observations from a re-analysis of the deposited data

How the results depend on the processing

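Of 256 values computed under alternatives, leaving out chromosomes singly not counted, 167 kept their direction and stayed on the same side of 0 or within the interval of the reported value. The lower occupancy of GC-poor promoters, their larger changed share and the lower share of H2A.Zac on H2A.Z did so under every alternative run. The difference in gained share from GC-rich promoters did not. For H2A.Z it stayed negative and its interval no longer contained 0 with G+C over 250 bp to each side (-6.84), without neighboring promoters (-6.79) and without chromosomes 19 and 20 (-6.07), and reversed at an LR of at least 5 (1.20) and 10 (22.4), at canonical TSSs (2.35), with a canonical TSS within 1 kb (2.28), in base pairs (1.44) and with regions of at least 500 bp (0.759). For H2A.Zac the same held with a window of 500 bp to each side (-6.01), with G+C over 250 bp (-3.43), without neighbors (-6.12), with 25% of the region inside the window (-3.95) and without chromosomes 19 and 20 (-3.46), and reversed at an LR of at least 5 (0.146), 10 (9.63) and 20 (32.8), at canonical TSSs (0.491) and with a canonical TSS within 1 kb (1.36). Of these reversals, those at an LR of at least 10 and 20 had intervals above 0. The difference in promoters with gained H2A.Z, -9.47 points, reversed to 0.183 at an LR of at least 10. The cause was not tested.

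Values of GC-poor promoters moved beyond their intervals as follows, with H2A.Z before H2A.Zac. Occupancy was 20.9% and 24.0% with a window of 500 bp to each side, 28.4% and 30.5% with 2 kb, 15.8% and 17.8% below 45% G+C, 18.3% and 20.5% at canonical TSSs, 19.6% and 21.96% without neighbors, 21.1% and 24.98% with regions of at least 500 bp, and for H2A.Z 22.4% with 25% of the region inside. The gained share was 69.6% and 69.6% at canonical TSSs, 68.8% and 69.2% with a canonical TSS within 1 kb, 71.8% and 54.4% at an LR of at least 10, and for H2A.Zac 60.6% without neighbors. The changed share was 19.8% and 42.2% at an LR of at least 5, 3.54% and 17.5% at 10, 19.7% and 44.9% in base pairs, 18.8% and 45.3% with regions of at least 500 bp, for H2A.Z 26.0% below 45% G+C and for H2A.Zac 50.7% with regions merged. H2A.Zac regions on H2A.Z were 76.8% with a window of 500 bp to each side, 72.8% with 2 kb, 70.9% below 45% G+C, 72.6% at canonical TSSs, 72.6% without neighbors, 69.6% with regions of at least 500 bp, 78.6% with an overlap of 1 bp and 65.2% with 50%. Promoters with a lost region moved in 7 alternatives for each mark, to between 0.232% and 4.48% for H2A.Z and between 2.37% and 10.3% for H2A.Zac, and promoters with a gained region in 8 and 9 alternatives, to between 0.673% and 7.20% and between 3.06% and 16.4%. No paired analysis was possible because the replicates are merged in the lists. Depth per region is unknown, so a weak region and an absent one cannot be told apart.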
